A study of Mus musculus with 6 samples.

Results

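Chemokine receptors on the leukocytes of transplanted mouse kidneys were described for 8 genes, Ccr1, Ccr2, Ccr7, Ccr8, Cx3cr1, Cxcr3, Cxcr4 and Cxcr6, taken by their symbols from the 28208 genes that the gene lists of all libraries shared. The data were single-cell RNA-seq libraries, made with a 10x Genomics droplet platform, of 6 kidneys. The labels give every sample as male, while the methods allow kidney donors of either sex. The 2 naive kidneys came from untransplanted wild-type C57BL/6 (B6, I-Ab) mice of 10 to 12 weeks. The 2 rejecting kidneys were BALB/c (I-Ad) grafts, labelled 6 to 7 weeks, placed into B6 recipients whose own kidneys had both been removed. The 2 tolerized kidneys were the same kind of graft in recipients that had also been infused with BALB/c splenocytes treated with ethylenecarbodiimide (ECDI), a chemical cross-linker of cells, once before and once after transplantation. Both kinds of graft were collected on day 15 after transplantation. Each kidney was 1 library and the unit of replication. The age and BALB/c strain of the grafts are those of the donor kidneys, and no age of the recipients is given. In separate grafts on day 15, flow cytometry in the paper found myeloid cells almost all of recipient (B6) origin. The origin of the leukocytes in these libraries was not tested. The naive kidneys differed from the grafted kidneys in strain, labelled age and gene list, so they were used only as a description. The tolerized kidneys were compared with the rejecting kidneys in each leukocyte class.

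Chemokines are small secreted proteins that guide leukocytes through tissue. They bind G protein-coupled receptors, and the receptors a leukocyte carries set which chemokine gradients it can follow. CXCR3 binds the interferon-induced chemokines CXCL9 and CXCL10 and marks effector T cells, and CXCR6, the receptor of CXCL16, marks T cells lodged in tissue. CCR7 binds CCL19 and CCL21 and brings naive lymphocytes and mature dendritic cells (DC) to lymph nodes. CCR8 is carried by subsets of CD4 T cells and regulatory T cells. CCR2 brings classical monocytes out of the bone marrow in answer to CCL2, CX3CR1 binds the membrane-bound chemokine CX3CL1 and is high on nonclassical monocytes and tissue macrophages, and CCR1 binds several CC chemokines on neutrophils and monocytes. CXCR4, the receptor of CXCL12, is found on most leukocytes.

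The bases before the start sites are shown for Cxcr6, Ccr1 and Cxcr4 only. Those of Ccr2, Ccr8, Cx3cr1 and Cxcr3 overlapped annotated exons, and Ccr7 had no promoter sequence. The genes shown also stood for the patterns that follow, in T cells, in neutrophils and other myeloid cells, and in nearly every class. Each stretch covered 248 bases, from 250 to 3 bases before the RefSeq start (GRCm38.p6), was read 5′ to 3′ on the strand of the gene, and overlapped no exon of the GENCODE annotation. Capitals mark the letters TGTGGT or their reverse complement ACCACA (the core bound by RUNX factors) and GAGGAA or TTCCTC (the core bound by PU.1, a myeloid factor).
Cxcr6, chr9:123806227-123806474, plus strand: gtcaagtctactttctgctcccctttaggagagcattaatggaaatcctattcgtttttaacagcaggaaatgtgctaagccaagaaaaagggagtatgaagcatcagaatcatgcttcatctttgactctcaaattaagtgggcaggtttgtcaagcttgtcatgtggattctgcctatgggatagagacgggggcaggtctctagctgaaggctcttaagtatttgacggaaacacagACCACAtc
Ccr1, chr9:123968695-123968942, minus strand: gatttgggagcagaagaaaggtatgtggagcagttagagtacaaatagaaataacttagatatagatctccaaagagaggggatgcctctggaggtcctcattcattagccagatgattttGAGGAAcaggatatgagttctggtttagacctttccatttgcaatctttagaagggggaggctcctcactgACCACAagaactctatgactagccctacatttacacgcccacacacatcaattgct
Cxcr4, chr1:128592302-128592549, minus strand: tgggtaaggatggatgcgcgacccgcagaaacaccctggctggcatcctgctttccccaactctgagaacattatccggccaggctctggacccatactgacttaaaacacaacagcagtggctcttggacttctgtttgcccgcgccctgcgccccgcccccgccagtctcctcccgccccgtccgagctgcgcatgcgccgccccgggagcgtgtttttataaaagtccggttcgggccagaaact
The Cxcr6 stretch held 1 match of the RUNX letters, the Ccr1 stretch held 1 match of each, and the Cxcr4 stretch held neither. Of 32851 mouse promoter windows of the same length, 14% held the RUNX letters and 23.0% the PU.1 letters, so such matches are common, and a match is a run of letters and not a shown binding site. GC content was 43.5% for Cxcr6, 43.1% for Ccr1 and 61.3% for Cxcr4.

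By the annotation of the build used for the libraries (mm10), Ccr1 (9, 123962124 to 123968692), Ccr2 (9, 124101950 to 124113557), Ccr8 (9, 120092114 to 120094906), Cx3cr1 (9, 119901616 to 120069879) and Cxcr6 (9, 123806475 to 123811760) lie on chromosome 9 and Cxcr3 (X, 101731535 to 101734269) on chromosome X. Ccr7 (11, 99144196 to 99155077) is on chromosome 11 and Cxcr4 (1, 128588199 to 128592293) on chromosome 1. The Cx3cr1 gene model overlaps Gorasp1, Csrnp1 and Xirp1 on the same strand, and Cxcr6 overlaps Fyco1 on the opposite strand.

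The grafts held 8532 to 13378 cell barcodes and 48111410 to 96803926 unique molecular identifiers (UMIs, which count single RNA molecules) each. Leukocytes were clustered without the 8 receptors and named from marker genes, and every class is called "-like" because its name rests on those markers alone. Named leukocytes numbered 4991 and 5416 in rejecting 1 and 2 and 3989 and 1997 in tolerized 1 and 2, against 121 and 181 in the naive kidneys. In 14 classes each graft had at least 20 cells, and these were tested. Levels, their order and statements on every or no other class refer to these 14. The median UMIs per cell were higher in both tolerized than in both rejecting kidneys in 13 of the 14 classes, mature DC-like cells being the exception. The median CD8 T-like cell had 1186 and 2844 UMIs in the rejecting and 4744.5 and 5450 UMIs in the tolerized kidneys. Values are therefore given as CPM (UMIs of the gene scaled to 1000000 UMIs of the class). They were scaled with TMM factors (the trimmed mean of M values of edgeR). Shares of cells are given after each cell was thinned to 1000 UMIs, and cells with fewer UMIs were left out of these shares. The CD8 T-like median of 1186 UMIs in rejecting 1 lay close to that limit. In rejecting 1, 21.3% of leukocytes fell in clusters left unnamed, against 4.09% to 5.22% in the other grafts. The grafts shared 18 to 35 barcodes pairwise and the naive kidneys shared 111. Proximal tubule-like cells, which should lack these receptors, were used as a gauge of free RNA. Their level was highest for Cxcr6 in rejecting 1, at 8.75 raw CPM, and at most 4.47 for any other receptor or graft. Up to 9.32% of the cells in a cluster of these held Ptprc, the gene used to pick leukocyte clusters. Free RNA was not told apart from mixed cells.

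Each receptor had its own distribution over the leukocyte classes. T cell-like and NK cell-like classes held most of the Cxcr6, Cxcr3 and Ccr8 UMIs, and monocyte-like, macrophage-like and neutrophil-like classes held most of the Ccr2, Cx3cr1 and Ccr1 UMIs.

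**Figure D1:**
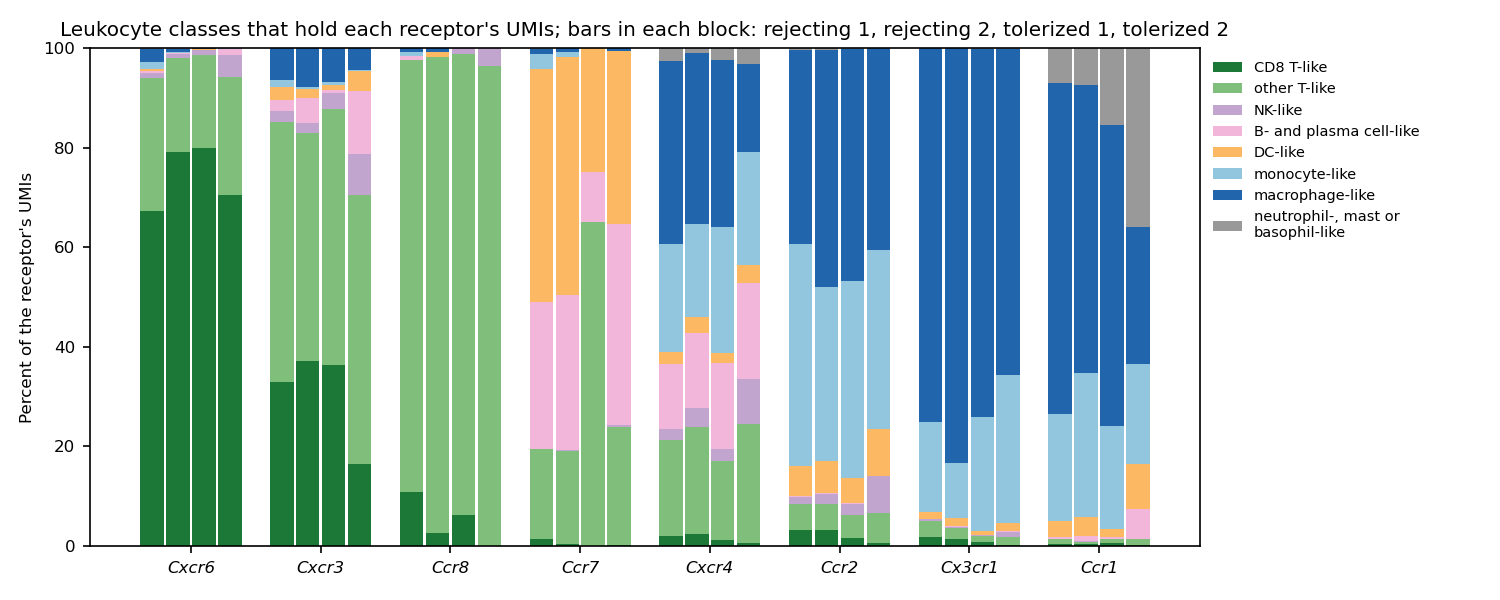
Percent of each receptor's UMIs in named leukocytes (y axis, 0 to 100) held by 8 groups of classes (colors), with 1 bar per graft in the order rejecting 1 and 2, tolerized 1 and 2. Cxcr6 lay mostly in CD8 T-like cells, Cx3cr1 mostly in macrophage-like cells, and the Ccr7 bar of tolerized 1 differs from the other 3 because that library held almost no Ccr7.

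CD8 T-like cells held 67.3%, 79.1%, 79.8% and 70.5% of the Cxcr6 UMIs of rejecting 1, rejecting 2, tolerized 1 and tolerized 2. They held less of Cxcr3, at 33.0%, 37.1%, 36.4% and 16.6%. Tolerized 2 had 290 CD8 T-like cells, the fewest of the grafts. Unnamed leukocytes are not in these shares. An unnamed cluster that met the marker rule for 12 T cell and 7 CD8 T markers held 811 Cxcr6 UMIs. Another, led by proximal tubule genes, held 305, and both came mostly from rejecting 1. Macrophage-like cells, cycling ones left out, held 58.8% to 74.5% of the Cx3cr1 UMIs. These shares follow both the number of cells and the RNA per cell, so the level within each class is given next.

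**Figure D2:**
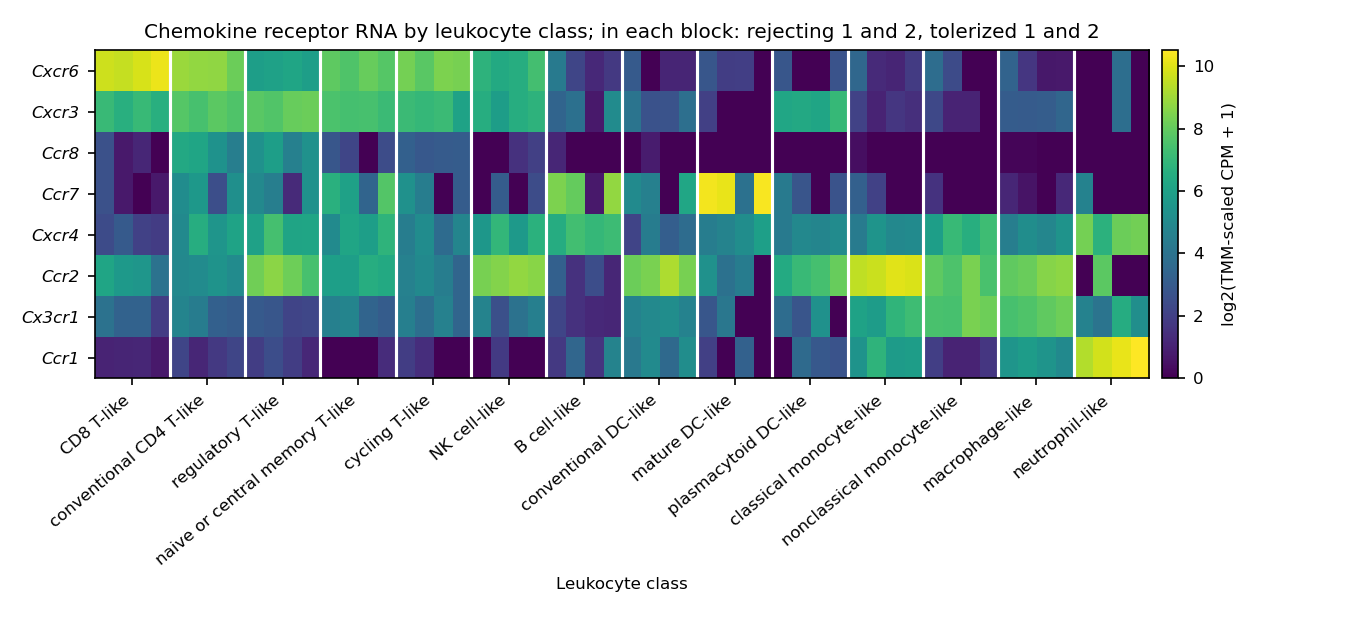
Heat map of the 8 receptors (rows) in the 14 leukocyte classes (blocks of 4 columns, 1 per graft in the order rejecting 1, rejecting 2, tolerized 1, tolerized 2), as log2(TMM-scaled CPM + 1). The brightest blocks are Cxcr6 in CD8 T-like, Ccr7 in mature DC-like, Ccr2 in classical monocyte-like and Ccr1 in neutrophil-like cells, and in the Ccr7 row tolerized 1 is the darkest column of the mature DC-like and B cell-like blocks.

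Cxcr6 was the most abundant of the T cell receptors for chemokines. In CD8 T-like cells its level was 840.0 and 760.1 TMM-scaled CPM in the rejecting and 925 and 1171 in the tolerized kidneys. Both tolerized values were above both rejecting values, but the log2 fold change of 0.39 (tolerized over rejecting; SE 0.24, 95% interval -0.15 to 0.93) did not pass edgeR's quasi-likelihood test with Benjamini-Hochberg adjustment over all genes of the class (adjusted p = 0.779). After thinning, 52.8%, 47.1%, 57.9% and 60.6% of the CD8 T-like cells held a Cxcr6 UMI, against at most 1.51% of proximal tubule-like cells. Conventional CD4 T-like cells ranked next by mean Cxcr6 level, with 484, 444, 429 and 280.4 CPM, and their values overlapped those of cycling T-like cells (224 to 341). Naive or central memory T-like cells held 195 to 266 CPM. NK cell-like cells held 81.2 to 164 and regulatory T-like cells 57.4 to 71.1 CPM, without overlap between these last classes. In every tested class outside the T and NK cell-like ones the Cxcr6 level was at most 18.9 CPM.

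Within the CD8 T-like class, the 4 clusters that had 20 or more cells in each graft held 526 to 1259 raw CPM of Cxcr6. The cluster led by Klrc1, an NK receptor gene, and Pdcd1, which encodes the inhibitory receptor PD-1, held 755, 833, 822 and 936 raw CPM of Cxcr6, and a cluster led by the granule protease gene Gzmb and by Cd7 held 746, 684, 886 and 934. Cxcr3 followed another order within the class: outside a cluster that came almost wholly from 1 library, it was highest in the cluster led by Gzmk, another granzyme gene, with 252, 228, 321 and 222 raw CPM, from 16 to 120 cells a graft, where the Pdcd1-led cluster held 93.8, 80.2, 70.6 and 39.3. Rejecting 1 gave 667 of the 687 cells of that other cluster. Leaving it out gave a log2 fold change of 0.084 for Cxcr3 in place of -0.02.

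Cxcr3 was spread over all T cell-like classes. Its mean level was highest in regulatory T-like cells, with 226 and 200.5 TMM-scaled CPM in the rejecting and 268 and 285 in the tolerized kidneys. The tolerized values were the higher ones in both kidneys, with a log2 fold change of 0.37 (SE 0.21, 95% interval -0.09 to 0.84) that did not pass the edgeR test (adjusted p = 0.718). Conventional CD4 T-like cells held 213, 176, 234 and 197 CPM, which overlapped the regulatory T-like values. Naive or central memory T-like cells held 143 to 182 CPM and did not overlap cycling T-like cells, at 65.3 to 141. In CD8 T-like cells the level was 139, 96.5, 133 and 97.3 CPM, with 1 high and 1 low kidney in each group. The lymphoid distribution of Cxcr3 had 1 myeloid exception, plasmacytoid DC-like cells, with 73.1, 80.2, 71.9 and 131 CPM. In B cell-like cells only tolerized 2 passed 20 CPM of Cxcr3, at 32.9, beside 9.45, 13.6 and 0.665.

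Ccr8 lay mostly in conventional CD4 T-like and regulatory T-like cells. It was rare, with 128 and 117 UMIs in all named leukocytes of the rejecting and 80 and 54 in those of the tolerized kidneys, and the conventional CD4 T-like class held 52.3%, 51.3%, 41.2% and 22.2% of them. Conventional CD4 T-like cells held 67 and 60 Ccr8 UMIs in the rejecting and 33 and 12 in the tolerized kidneys, or 81.1, 72.2, 39.5 and 21.7 TMM-scaled CPM. Both tolerized values lay below both rejecting values. The log2 fold change was -1.27 (SE 0.32, 95% interval -1.98 to -0.56), with an unadjusted p of 0.00223 in the edgeR test and an adjusted p of 0.23, the lowest adjusted p of any receptor in any class. With kidneys blocked by crossed replicate numbers, a fit added after seeing the data, the adjusted p by edgeR was 0.0128, where 0.843% of the genes of the class were called lower. Regulatory T-like cells held 38.3, 57.7, 23.0 and 38.9 CPM of Ccr8, with overlapping groups. The shares of conventional CD4 T-like cells with a Ccr8 UMI were 6.17%, 9.13%, 3.77% and 3.96% after thinning and 15.9%, 16.4%, 15.6% and 10.9% before it. Both rejecting shares lay above both tolerized shares either way, but the unthinned shares of rejecting 1, rejecting 2 and tolerized 1 lay close together. Within the rejecting group neither kind of share kept the order of the CPM, and within the tolerized group only the unthinned shares did.

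Ccr2 was highest in classical monocyte-like cells and second to them in several lymphoid and myeloid classes alike. Classical monocyte-like cells held 716 and 801 TMM-scaled CPM in the rejecting and 1044 and 960.3 in the tolerized kidneys, and no value of another class reached this range. Behind them, conventional DC-like cells (285 to 596), NK cell-like cells (323 to 443), macrophage-like cells (241 to 422) and regulatory T-like cells (173 to 412) overlapped one another. Ccr2 in regulatory T-like cells exceeded that in conventional CD4 T-like cells, at 29.1 to 40.7 CPM, in every graft.

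In macrophage-like cells both tolerized values of Ccr2 were above both rejecting values, without passing the adjusted threshold. The values were 241 and 272 TMM-scaled CPM in the rejecting and 385 and 422 in the tolerized kidneys, from 1316 or more UMIs each. The log2 fold change was 0.65 (SE 0.18, 95% interval 0.24 to 1.06), with an unadjusted p of 0.00632 and an adjusted p of 0.594 in edgeR's test. Thinned shares of macrophage-like cells with a Ccr2 UMI kept this order, at 17.6% and 21.2% against 27.4% and 25.5%. The class was made of 4 clusters in which Ccr2 differed widely. In the cluster led by the chemokine genes Ccl7, Ccl2 and Ccl12 the raw level of Ccr2 was 434, 321, 458 and 555 CPM. In the cluster led by Saa3 and by Mmp12, which encodes the macrophage elastase, it was 233, 358, 592 and 493. In the cluster led by Slc40a1, which encodes the iron exporter ferroportin, and Spic, a factor of iron-recycling macrophages, it was only 15.9, 47.8, 26.0 and 2.27.

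Ccr2 in T and NK cell-like classes had no shared direction. In CD8 T-like cells it was lower in both tolerized kidneys, with 70.3, 51.0, 45.0 and 14.4 TMM-scaled CPM and a log2 fold change of -0.93 (SE 0.40, unadjusted p = 0.0402, adjusted p = 0.665 by edgeR). Tolerized 2 had 22 UMIs and stood lowest. Without tolerized 1 the log2 fold change was -2.10 with an adjusted p of 0.00153 by edgeR, a value that then rested on tolerized 2 alone, and 0.447% of the genes of the class were called lower in that fit. Macrophage RNA in CD8 T-like cells ran in the order of Ccr2, with the 12 markers at 1058, 197, 136.5 and 74.8 raw CPM. The part of this RNA in the Ccr2 values was not tested. Of the 196 Ccr2 UMIs of rejecting 1 in CD8 T-like cells, 88 came from the cluster given almost wholly by that library. The Pdcd1-led cluster held 43.9, 56.1, 21.2 and 3.93 raw CPM. In the cluster led by Cxcr6 the groups overlapped, at 59.3, 38.9, 63.6 and 22.6. As in the whole CD8 T-like class, both tolerized values lay below both rejecting ones in regulatory T-like cells, at 302, 412, 287 and 173 TMM-scaled CPM. Naive or central memory T-like cells held 60.1, 58.2, 93.4 and 83.3, with both tolerized values above. In plasmacytoid DC-like cells the values were 85.3, 138, 169.9 and 267 CPM of Ccr2, from 14 to 49 UMIs, with a log2 fold change of 0.97 (95% interval 0.19 to 1.75, adjusted p = 0.543).

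Cx3cr1 had an unadjusted p under 0.05 in the edgeR test in 5 of the 8 classes in which it was tested, 3 myeloid and 2 T cell-like. Of all gene and class pairs, 6.63% had such a p. The count was the largest of the 8 receptors, but none of the 5 passed the adjusted threshold, and the classes share the same kidneys. Cx3cr1 was highest in nonclassical monocyte-like and macrophage-like cells, whose ranges overlapped, and lower in classical monocyte-like cells. In nonclassical monocyte-like cells the level was 179 and 176 TMM-scaled CPM in the rejecting and 336 and 294 in the tolerized kidneys. Both rejecting values lay close together and well below both tolerized values, with a log2 fold change of 0.83 (SE 0.22, 95% interval 0.34 to 1.32, unadjusted p = 0.00357, adjusted p = 0.413 by edgeR). In classical monocyte-like cells it was 65.7, 54.6, 116 and 151 CPM, with a log2 fold change of 1.14 (SE 0.24, 95% interval 0.59 to 1.68, unadjusted p = 0.0011, adjusted p = 0.547). With the crossed block the adjusted p by edgeR was 0.00532, and 0.804% of the genes of this class were called higher. In macrophage-like cells it was 174, 193, 247 and 287 CPM, with a log2 fold change of 0.54 (SE 0.18, adjusted p = 0.716). The 12 macrophage markers summed to 5072, 5549, 4890 and 6802 raw CPM in classical monocyte-like cells and to 2484, 2997, 3295 and 2539 in nonclassical monocyte-like cells, values that did not separate the groups. RNA of kidney tubule did separate them, in the direction of Cx3cr1: the 11 proximal tubule markers summed to 95.2, 34.0, 131.8 and 307.8 raw CPM in classical monocyte-like, 145.9, 49.5, 205.0 and 522.8 in nonclassical monocyte-like and 78.2, 40.4, 97.9 and 215.4 in macrophage-like cells. The last order was also that of the groups for Ccr2 in macrophage-like cells. The part of this RNA was not tested, and proximal tubule-like cells themselves held at most 4.47 raw CPM of either receptor.

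In each of the 4 macrophage-like clusters both tolerized kidneys had more Cx3cr1 than both rejecting kidneys. In the cluster led by Ccl7, Ccl2 and Ccl12 the raw values of Cx3cr1 were 168, 224, 246 and 240.2 CPM, and in the Slc40a1- and Spic-led cluster they were 166, 180.4, 306 and 346. The cluster led by Ccl8, the scavenger receptor gene Stab1 and the complement gene C1qa held the most, with 225, 263, 308 and 372. Of the 2 classical monocyte-like clusters, the one led by Cxcl10 and Ly6i held 47.4, 49.4, 80.2 and 131 CPM, and the one led by Chil3, Fn1 and F13a1 held 120.1, 68.0, 149 and 152. These clusters are parts of the classes tested and no separate evidence. Thinned shares of nonclassical monocyte-like cells with a Cx3cr1 UMI were 20%, 16.7%, 27.2% and 25%.

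In conventional CD4, naive or central memory, CD8 and regulatory T-like cells Cx3cr1 pointed the other way, from few UMIs. Of these classes, 2 had an unadjusted p under 0.05 in the edgeR test. Cycling T-like cells had no such order, with means of 17.6 CPM (SD 6.76) in the rejecting and 16.6 (SD 9.79) in the tolerized kidneys. Conventional CD4 T-like cells held 21 and 17 UMIs in the rejecting and 7 and 4 in the tolerized kidneys, or 25.4, 20.5, 8.37 and 7.24 TMM-scaled CPM, with a log2 fold change of -1.52 (SE 0.48, unadjusted p = 0.00904, adjusted p = 0.379 by edgeR). Naive or central memory T-like cells held 22.5, 25.5, 9.34 and 7.44 CPM, with a log2 fold change of -1.504 (SE 0.49, unadjusted p = 0.00966, adjusted p = 0.419). CD8 T-like cells held 14.7, 9.01, 8.81 and 2.61 CPM, and regulatory T-like cells, with too few UMIs to be tested, 6.84, 6.08, 3.48 and 3.76. Macrophage RNA in these classes ran in nearly the same order: the 12 macrophage markers summed to 914, 266, 194 and 60.6 raw CPM in conventional CD4 T-like cells, with 12, 11, 9 and 7 of the markers found, and to 964, 242, 137 and 94.1 in naive or central memory T-like cells, with 10, 7, 9 and 6 found. The part of this RNA in the Cx3cr1 values was not tested.

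Ccr1 was highest in neutrophil-like cells. These cells, 35 to 42 in each graft, held 632 and 886 TMM-scaled CPM in the rejecting and 1149 and 1452 in the tolerized kidneys, from 26, 58, 89 and 124 UMIs. Both tolerized values were the higher ones, but the log2 fold change of 0.77 (SE 0.37, 95% interval -0.07 to 1.60) did not pass the edgeR test (adjusted p = 0.487). Classical monocyte-like cells held 41.4, 114, 53.8 and 56.9 CPM of Ccr1, where rejecting 2 alone was high. Macrophage-like cells held 43.4, 54.3, 42.6 and 31.1 CPM. Nonclassical monocyte-like cells held at most 2.89 CPM of Ccr1, so the 2 monocyte-like classes were opposite for Ccr1 and Cx3cr1. In mast cell or basophil-like cells, too few in tolerized 2 to test, 36.6%, 51.9% and 67.6% of the 41, 27 and 37 cells of the other grafts held a Ccr1 UMI before thinning.

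Cxcr4 was found in all 14 classes and differed between replicate kidneys. Neutrophil-like cells held 316, 107, 284 and 304 TMM-scaled CPM, B cell-like cells 89.8, 161, 128 and 145, and nonclassical monocyte-like cells 57.8, 134, 95.7 and 153. CD8 T-like cells held the least, at 2.61 to 6.81 CPM, while regulatory T-like cells held 62.9, 170.1, 68.3 and 71.5. Rejecting 2 had more Cxcr4 than rejecting 1 in 13 of the 14 classes, and tolerized 2 had more than tolerized 1 in 13 of the 14. In no class did Cxcr4 reach an unadjusted p of 0.05 in the edgeR test. In NK cell-like cells, with 46.2, 123, 49.3 and 104 CPM, the log2 fold change was -0.18 (95% interval -1.15 to 0.80).

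Ccr7 was nearly absent from 1 tolerized library. In mature DC-like cells, the class in which it was highest, its level was 1283 and 1145 TMM-scaled CPM in rejecting 1 and 2, 14.3 in tolerized 1 and 1336 in tolerized 2, from 424, 408, 5 and 265 UMIs. B cell-like cells held 345, 259, 0.665 and 448 CPM, and the value of tolerized 1 was 1 UMI in 407 cells. Naive or central memory T-like cells held 102, 63.1, 9.34 and 208 CPM of Ccr7, regulatory T-like cells 30.1, 21.3, 1.39 and 38.9, and conventional DC-like cells 31.7, 22.7, 0 and 72.5, where 0 UMIs allow up to 3.26 raw CPM. In each of these 5 classes tolerized 1 was the lowest of the 4 grafts.

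**Figure D3:**
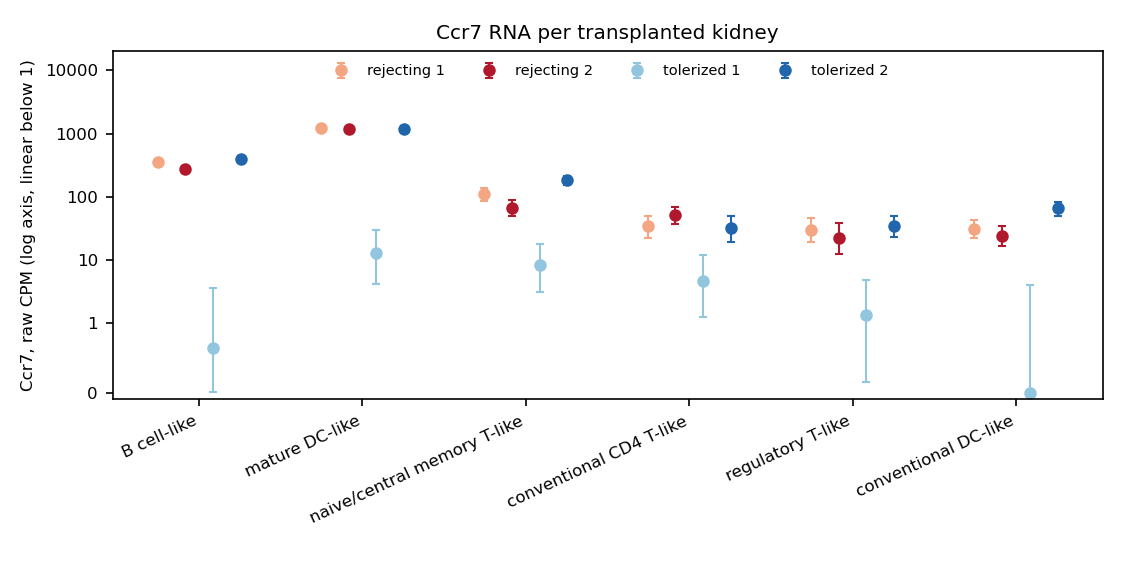
Ccr7 in 6 leukocyte classes of the 4 grafts, as raw CPM on a log axis that is linear below 1, with exact 95% Poisson intervals that cover counting error only. Tolerized 1 lies between 0 and 12.9 raw CPM in all 6 classes, below the other 3 grafts in each.

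The gap was seen in the whole library and in no other gene scanned. All barcodes of tolerized 1 together held 28 Ccr7 UMIs, or 0.289 CPM, against 1121, 1014 and 1092 UMIs in rejecting 1, rejecting 2 and tolerized 2, or 19.7, 21.1 and 11.6 CPM. The naive kidneys, with far fewer leukocytes, held 91 and 180. For each graft, the UMIs expected at the class levels of the lowest other graft were set against those observed, for every gene with at least 100 expected. Of 9147 such genes in tolerized 1, Ccr7 was the only one observed at under 0.1 of that number, with 18 UMIs against 1019.3 and a ratio of 0.0177, and the next gene, Jchain, had a ratio of 0.194. There was no such gene among 8545 genes in rejecting 1, 8821 in rejecting 2 and 7495 in tolerized 2. This scan was chosen after the Ccr7 values had been seen.

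B cell-like and mature DC-like cells, which carry Ccr7 in the other grafts, were present in tolerized 1 with their markers. Its B cell-like cells held 2315 raw CPM of Cd79a, which encodes a chain of the B cell receptor complex, against 2038 to 2256 in the other grafts, and 838 of Ms4a1, which encodes CD20, against 739 to 830. Its mature DC-like cells held 1528 raw CPM of Fscn1, which encodes fascin of mature DC, and 1324 of Ccl22, a DC chemokine gene. Smarce1, a neighbor of Ccr7 on chromosome 11, had 83.3 raw CPM in B cell-like cells of tolerized 1 against 71.8 to 82.3 in the other grafts. What set the Ccr7 value of this library was not tested.

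The Ccr7 comparison of the groups therefore rested on 1 library. With all 4 grafts the log2 fold change was -0.87 in mature DC-like, -0.46 in B cell-like, -0.59 in regulatory T-like, 0.42 in naive or central memory T-like and 0.41 in conventional DC-like cells, none past the edgeR test (lowest adjusted p = 0.873). Without tolerized 1 these became 0.15, 0.54, 0.60, 1.32 and 1.42, and the last 2 passed the test, with adjusted p of 0.0475 and 0.0415 by edgeR. In these fits 1.08% and 0.728% of the genes of the class were called higher. Without tolerized 2 they became -6.34, -8.60, -4.08, -3.10 and -7.95, and all 5 passed. The shares of all genes called lower in these fits were 0.586%, 0.473%, 0.227%, 0.351% and 0.336%. Ccr7 in cycling T-like cells, at 39.2, 20.8, 0 and 7.25 CPM from 28, 13, 0 and 3 UMIs, had a log2 fold change of -3.00 (unadjusted p = 0.00394, adjusted p = 0.653). With the replicate number as a block it passed the edgeR test (adjusted p = 0.0162), in a fit that called 0.429% of the genes of the class lower.

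Over all receptors and classes, no difference between tolerized and rejecting kidneys passed the threshold. Of 112 pairs of a receptor and a class, 64 had enough counts to be tested and 48 did not, and a pair could pass the low-count filter through 1 group alone. None of the 64 had a Benjamini-Hochberg adjusted p under 0.05 in edgeR's quasi-likelihood test, and none did with DESeq2. Among all genes, edgeR called 0.0702% in conventional CD4 T-like, 0.0183% in NK cell-like, 0.0787% in mature DC-like, 0.76% in plasmacytoid DC-like, 0.00898% in macrophage-like and 0.417% in neutrophil-like cells, and 0.0% in each of the other 8 classes, or 0.0415% over the 14 classes together. With 2 kidneys in each group, an exact permutation test of 1 value could not give a p below 0.3333. At an unadjusted p under 0.05, edgeR counted 11 of the 64 pairs (17.2%), against 6.63% of all 91602 gene and class pairs. Of the 11, 5 were higher and 6 lower in the tolerized group. DESeq2, run without the low-count filter, counted 10 of the 108 pairs to which it gave a p. Over all genes of a class, its counts ran from 71 of 11957 in plasmacytoid DC-like to 435 of 17264 in macrophage-like cells. Both tolerized values lay above both rejecting values for 16 of the 64 pairs (25%), against 18.1% of all genes, and below them for 12 (18.8%), against 18.3%. The median log2 fold change of the 64 pairs was 0.11, where class medians over all genes ran from -0.01 to 0.03.

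**Figure D4:**
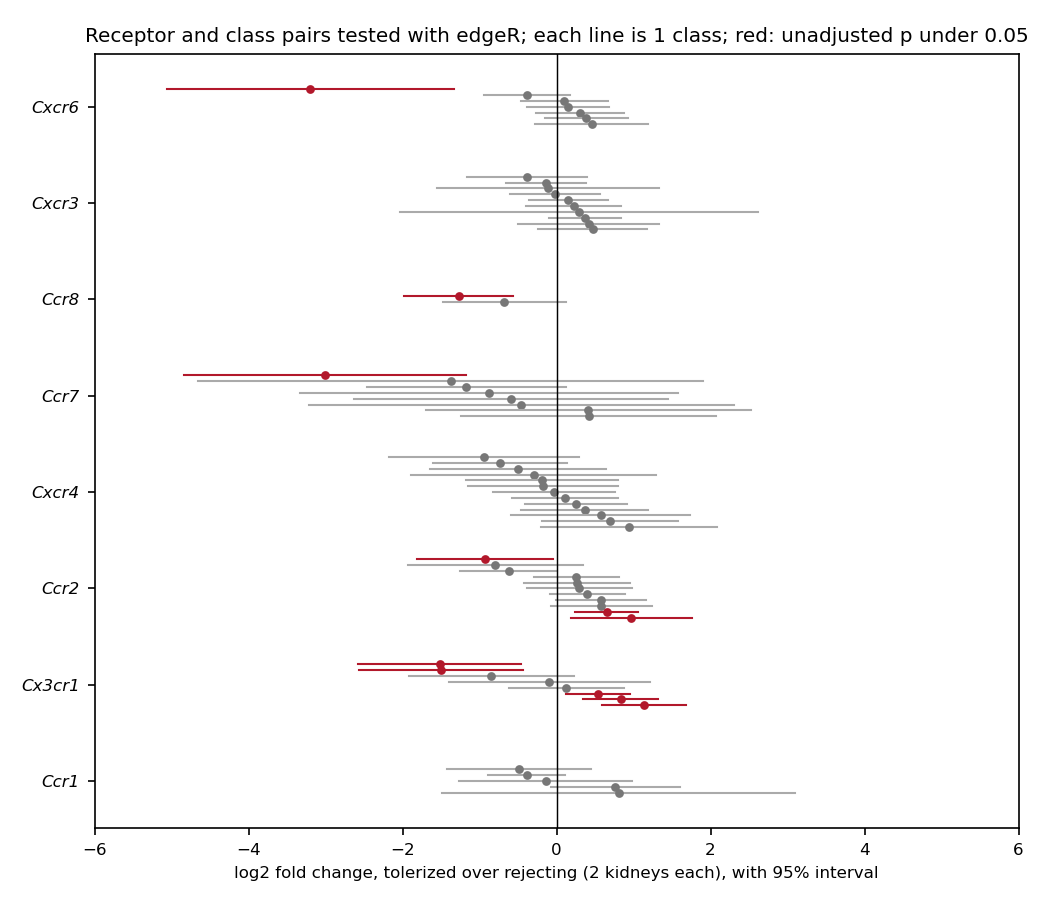
log2 fold change of tolerized over rejecting kidneys with its 95% interval (x axis) for the 64 receptor and class pairs tested with edgeR, grouped by receptor, where each line is 1 class and red marks an unadjusted p under 0.05. The red lines are 3 above and 2 below 0 for Cx3cr1, 2 above and 1 below for Ccr2 and 1 below each for Cxcr6, Ccr8 and Ccr7, and the Ccr7 intervals are the widest group.

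The last of the 11 pairs was Cxcr6 in macrophage-like cells, at 9.26, 2.17, 0.594 and 0.641 TMM-scaled CPM, with a log2 fold change of -3.20 (SE 0.81, unadjusted p = 0.0043, adjusted p = 0.558 by edgeR). Rejecting 1 was the highest graft. Its thinned share of macrophage-like cells with a Cxcr6 UMI, 1.53%, was about that of its proximal tubule-like cells, 1.51%, with median depths of 9960.0 and 3228.5 UMIs. The part of free RNA in the value of this kidney was not tested. The 12 T cell markers together were at 118, 39.2, 12.3 and 39.7 raw CPM in macrophage-like cells, highest in the same kidney.

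Other genes of the chemokine system gave the setting of these values. Of 16 further chemokine receptors, 38 pairs with a class were tested, none passed the edgeR test, 8 (21.1%, 1 higher and 7 lower) had an unadjusted p under 0.05 beside the 6.63% of all genes, and the median log2 fold change was -0.23. The genes of the ligands of the 8 receptors were the group with calls. Of 95 ligand and class pairs tested, 3 fell and none rose by the edgeR test, beside 0.0415% of all genes called in either direction. At an unadjusted p under 0.05 there were 40 (42.1%, 31 lower and 9 higher) beside the same 6.63%, and the median log2 fold change was -0.41.

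The 3 ligand calls were each in a small class. Ccl5, a ligand of CCR1, fell in plasmacytoid DC-like cells of tolerized kidneys, with 396, 91.7, 6.53 and 21.8 CPM from 65, 16, 1 and 4 UMIs. The log2 fold change was -3.97 (SE 0.64, adjusted p = 0.000463 by edgeR). Ccl8, a ligand of CCR2 and in mice also of CCR8, fell in mature DC-like cells, with 191, 135, 8.57 and 20.2 CPM from 63, 48, 3 and 4 UMIs. Its log2 fold change was -3.60 (SE 0.50, adjusted p = 0.0452 by edgeR). Cxcl10, a ligand of CXCR3, fell in neutrophil-like cells, with 1046, 458, 38.7 and 35.1 CPM from 43, 30, 3 and 3 UMIs. Its log2 fold change was -4.25 (SE 0.60, adjusted p = 0.0172 by edgeR). The tolerized values of the 3 calls thus rested on 1 to 4 UMIs a kidney. RNA of other cells ran with the first 2 calls. The 12 T cell markers summed to 299, 139, 11.6 and 26.8 raw CPM in plasmacytoid DC-like cells, and the 12 macrophage markers to 2051, 1345, 139.9 and 136 in mature DC-like cells. In neutrophil-like cells the macrophage markers were at 1881, 2253, 6750 and 419, another order than that of Cxcl10. The 12 T cell markers there were at 627, 78.6, 80.1 and 27.3, highest in rejecting 1 and lowest in tolerized 2, as Cxcl10 was. Cxcl10 led a classical monocyte-like cluster, and monocyte markers were not summed in neutrophil-like cells. The part of such RNA in these calls was not tested. One ligand gene leaned the other way: Ccl1, the ligand of CCR8, was at 2.51, 0.879, 20.5 and 77.7 CPM in CD8 T-like cells, with a log2 fold change of 4.89 (SE 0.71, adjusted p = 0.0769). Of 16 genes of receptor signalling, such as the G protein gene Gnai2 and the regulator Rgs16, 195 pairs were tested, none passed, and the median log2 fold change was 0.02.

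The genes whose levels followed each receptor most closely over the 56 sums of a class in a graft were named from 9496 genes with a mean of at least 5 CPM, by the Pearson correlation of log2(CPM + 1). The sums share libraries, depth and class structure, so these values are a description. Cxcr6 was closest to Zap70 (r = 0.946), Cd3e (0.937) and Themis (0.936), genes of T cell receptor signalling. Cxcr3 was closest to Sit1 (0.910), Sla2 (0.893) and Prkca (0.892), and Ccr8 to Izumo1r (0.908), which encodes folate receptor 4 of CD4 T cells, C2cd4b (0.904) and Penk (0.898). Cx3cr1 followed Csf1r (0.844), the receptor of macrophage growth factor, Naip2 (0.840) and Fcgr4 (0.827). Ccr1 followed Clec5a (0.823), Mmp8 (0.812) and Sdcbp (0.812), and Ccr2 followed Frmd4b (0.789), Dse (0.753) and Arl6ip5 (0.743). The correlations were weakest for Cxcr4, with Sh3bp5 (0.686), Bcl10 (0.681) and Tgif1 (0.652), and for Ccr7, with Tmem39a (0.684), Cacna1s (0.645) and Ccr6 (0.642). The Ccr7 values include the sums of tolerized 1, the library that held almost no Ccr7, and were not recomputed without them.

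The naive kidneys held few leukocytes, so only classes with 20 or more cells in both are given. In B cell-like cells, 28 and 77 in number, the raw Ccr7 level was 517 and 695 CPM and that of Cxcr4 155 and 156, where the grafts other than tolerized 1 held 273 to 402 of Ccr7. Before doublets were left out, 29 and 84 of the naive cells came from a B cell-like cluster that also met the rule for 6 proximal tubule markers. Only 6 and 5 came from the other B cell-like cluster, which held most such cells of each graft. Naive or central memory T-like cells, 29 and 25 in number, held 564 and 423 CPM of Ccr7, against 66.8 to 183 in the grafts other than tolerized 1, and 282 and 48.8 CPM of Cxcr6. Classical monocyte-like cells, 32 and 27 in number, held 872 and 593 CPM of Ccr2, which lay on both sides of the lowest graft value of 724. The cluster make-up differed. Before doublets were left out, 35 and 30 naive cells lay in the Chil3-led cluster and 0 and 1 in the Cxcl10-led one. In the Chil3-led cluster the grafts held 1004, 1029, 1205 and 1068 raw CPM of Ccr2, all above both naive values.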

How the data were processed

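Kidneys were dissociated, sequenced on a 10x Genomics platform and processed by the authors with Cell Ranger (version 3.0.1 in the matrix headers of the grafts) on mm10. The deposited files hold UMI counts per gene and barcode, not normalized.

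Barcodes under 500 UMIs or 250 genes, or over 50% mitochondrial UMIs, were dropped. Doublets were called with a rate of 0.8% per 1000 barcodes and left out, with clusters of 50% or more called doublets. Cells were clustered with scanpy 1.11.5 (Leiden, leidenalg 0.10.2). Clusters in which at least 40% of cells held Ptprc were taken as leukocytes and clustered again at resolution 2.0, after 10 clusterings had been examined. The 8 receptors, mitochondrial and ribosomal genes entered no clustering. Of 34 clusters, 28 were named from at least 3 markers and 6 stayed unnamed. The Ptprc threshold, the resolution and the naming rule were set after seeing the data, on markers and mixing and not on receptors, and the members, lists and markers were chosen with earlier results of these data known.

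Counts were summed per kidney and class. Tolerized and rejecting kidneys (2 each) were compared with edgeR 4.0.16 (R 4.3.3; filterByExpr, TMM, quasi-likelihood test), with Benjamini-Hochberg adjustment over all genes of a class. On simulated counts for CD8 T-like cells (9700 genes), 27% of 2-fold and 94% of 4-fold changes were recovered with 5 false calls, and for mature DC-like cells (3480 genes) 21% and 82% with 4. The simulation used the same dispersion for all genes of a class and set changes only in genes above a minimum mean count. Its rates therefore do not cover receptors with few UMIs. DESeq2 1.42.0 and the other alternatives are described below. The study processed its kidneys in 2 experiments with every group in each, but the labels number kidneys 1 and 2 without tying a number to an experiment. Deviations of same-numbered kidneys correlated at -0.16 to 0.05 over the classes, so the main fit had no block, and both possible pairings were fitted as alternatives. P-values measure the spread between these separate kidneys. Shares were computed after thinning to 1000 UMIs, without the cells below 1000 UMIs. Intervals and counting limits (3 counts for a 0) cover counting error only. Named genes were the 8 receptors in every class, listed chemokine genes that passed or were extreme in their list (at most 4 a list) and, for each receptor, the 3 closest genes. Of 17 ligand genes 14 were used. Promoter sequences came from RefSeq (GRCm38.p6) for 7 of the 8 receptors, Ccr7 being without one.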

Additional observations from a re-analysis of the deposited data

Results flagged for a closer look

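For Ccr2 and Cx3cr1 the groups stood apart in opposite directions in different classes, with every tolerized kidney above every rejecting kidney in some and below in others. The differences between classes were not tested, and the classes come from the same kidneys. None of the values below passed the adjusted threshold in the edgeR test. Over all genes and classes, 18.1% of pairs stood apart upward in this way and 18.3% downward. The T cell-like Cx3cr1 values came from 4 to 21 UMIs a kidney, in nearly the order of macrophage RNA, whose part was not tested. Those of Ccr2 in plasmacytoid DC-like cells came from 14 to 49. In CD8 T-like cells Ccr2 ran in the order of macrophage RNA as well, whose part there was not tested. Ccr2 had a log2 fold change of tolerized over rejecting of -0.93 in CD8 T-like cells, but 0.97 in plasmacytoid DC-like and 0.65 in macrophage-like cells. Cx3cr1 had log2 fold changes of -1.52 in conventional CD4 T-like and -1.504 in naive or central memory T-like cells, but 1.14 in classical monocyte-like, 0.83 in nonclassical monocyte-like and 0.54 in macrophage-like cells.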

How the results depend on the processing

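The count of receptor and class pairs past an adjusted p of 0.05 was 0 of 64 with all 4 grafts and stayed 0 with DESeq2 (60 pairs with an adjusted p), DESeq2's size factors in edgeR (64), all 6 kidneys in the fit (41), doublets kept (70), at least 1000 UMIs per cell (64), at most 20% mitochondrial UMIs (60), a lower clustering resolution (56), T cells gated on Cd4, Cd8 and Foxp3 UMIs (20) and without the CD8 T-like cluster of rejecting 1 (4), the last chosen after seeing the data. Over all genes the share called was 0.0415% with all 4 grafts and 0.0% to 0.306% under these settings. The count was 7 of 108 (0.752% of all genes) with no low-count filter, where the pairs were Ccr8 in conventional CD4 T-like, Ccr7 in cycling T-like and classical monocyte-like, Cx3cr1 in classical monocyte-like, Cxcr6 in nonclassical monocyte-like and macrophage-like, and Ccr2 in neutrophil-like cells. Leaving out 1 kidney gave 2 to 6 (4 without rejecting 1, 2 without rejecting 2, 3 without tolerized 1 and 6 without tolerized 2, the last all Ccr7, beside 1.13%, 1.21%, 0.666% and 0.37% of all genes), with the lone kidney assumed to vary like the other group. The fit with the replicate number as a block gave 1 (Ccr7 in cycling T-like cells, beside 0.14% of all genes) and a crossed pairing, added after seeing the data, gave 2 (Ccr8 in conventional CD4 T-like and Cx3cr1 in classical monocyte-like cells, beside 0.699%). Which of the 2 pairings follows the experiments in which the kidneys were processed is not given in the labels. These changes were not tested for a cause.

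Of 376 recomputed log2 fold changes of single pairs, 340 kept their direction and side of the threshold, 18 kept the direction and passed it, and 18 changed sign. For Ccr7 the sign changed without tolerized 1 in B cell-like (0.54), mature DC-like (0.15) and regulatory T-like cells (0.60). It changed in naive or central memory T-like cells with the replicate block (-0.12), with the crossed block (-0.18) and without tolerized 2 (-3.10), and in conventional DC-like cells under the same settings (-0.15, -0.086 and -7.95). For Cxcr3 in CD8 T-like cells, close to 0 at -0.02, it changed with at least 1000 UMIs (0.071), at the lower resolution (0.19), without rejecting 1 (0.25), without tolerized 2 (0.18) and without the cluster of rejecting 1 (0.084). For Cxcr4 it changed in NK cell-like cells without rejecting 2 (0.79) and without tolerized 1 (0.25), and in B cell-like cells with doublets kept (-0.039) and without rejecting 1 (-0.25). Leaving out 1 kidney in turn gave ranges of -8.60 to 0.54 (B cell-like), -6.34 to 0.15 (mature DC-like), -4.08 to 0.60 (regulatory T-like), -3.10 to 1.32 (naive or central memory T-like) and -7.95 to 1.42 (conventional DC-like) for Ccr7, -0.30 to 0.25 for Cxcr3 in CD8 T-like, and -0.80 to 0.79 (NK cell-like) and -0.25 to 0.61 (B cell-like) for Cxcr4. Raw CPM in place of TMM-scaled CPM moved 25 of 194 levels past the spread between replicates. Of 194 shares of cells, 111 moved when thinned to 2000 UMIs and 177 when not thinned. Both settings also changed which cells were counted, because cells below the thinning depth were left out. Ccr8 passed the low-count filter in 2 of the 14 classes and Ccr1 in 5. Whether depth or absent RNA kept them out elsewhere was not tested.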

Other observations

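Cx3cr1 was also high in a leukocyte cluster of the naive kidneys that stayed unnamed. Of its 126 cells 123 came from the naive kidneys. The cluster met the marker rule for 9 macrophage and 6 proximal tubule markers. It stayed unnamed because its leading genes included Mgl2, a lectin gene of DC and macrophages that was on a DC marker list. Before thinning, 62.7% of its cells held a Cx3cr1 UMI, at 357 raw CPM. In the grafts the macrophage-like cluster led by Ccl8 and Stab1 held 225 and 263 raw CPM of Cx3cr1 in rejecting 1 and 2. In tolerized 1 and 2 it held 308 and 372.

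Cxcr4 had more RNA in rejecting 2 than in rejecting 1 in 13 of 14 classes, and in tolerized 2 than in tolerized 1 in 13 of 14. The exceptions were neutrophil-like cells of the rejecting and CD8 T-like cells of the tolerized kidneys. No other receptor had such a count in both groups. The kidneys of a class share libraries, and what moved with this order was not tested.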
